A study of Mus musculus with 4 samples.

Results

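The effect of germ-free housing on gene expression was described in wild-type (WT) dendritic cells of the mouse colonic lamina propria, by setting the array of cells from germ-free (GF) mice against the array of cells from specific pathogen-free (SPF) mice. These are 2 of the 4 arrays of the study; the other 2 hold cells of mice labelled CD300a deficient (KO), 1 from each housing. All mice were C57BL/6J, the SPF mice are labelled female and the GF mice male, and no label gives their age. The cells were sorted by flow cytometry from the lamina propria of 5 mice per condition, without culture or treatment, and the sources used here do not give the sorting gate. Each condition has 1 array, so no difference has a replicate check and no test was made. Slide 1, read in scan 1, held the arrays of SPF mice and slide 2, read in scan 2, those of GF mice; housing and slide, scan or labelled sex therefore cannot be told apart.

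A germ-free animal carries no microbes, whereas an SPF animal carries a gut microbiota that lacks listed pathogens. Dendritic cells are the antigen-presenting cells that carry gut antigens to lymph nodes and direct T cells towards tolerance or immunity. They lie under the epithelium together with macrophages, plasma cells that secrete IgA, and granulocytes, and several of these populations are known to depend on the microbiota.

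A gene's level was its probe's processed signal on the log2 scale, less the 75th percentile of the same array, so a level of 0 is the 75th percentile, and a difference is always the GF level minus the SPF level. Levels of different genes come from different probes and are not compared with each other. A gene counted as measured when its probe was well above background on at least 1 WT array, which held for 15113 of 19804 named autosomal genes. Of these, 13176 were above background on both arrays, 1175 on the GF array only and 762 on the SPF array only. Where a gene was above background on 1 array only, its fold is given as a lower bound, "at least", against the higher of its own signal and the dimmest well-measured signal on the other array. Genes on the X and Y chromosomes were left out. As a check of the labels, 4 of 4 Y-linked genes were above background in WT cells of GF mice and 0 in those of SPF mice, and both Xist probes were so on the WT SPF array only. The KO-labelled GF array, labelled male, had all 4 Y-linked genes and both Xist probes above background, and 1 Y-linked gene was above background on the KO-labelled SPF array. Cd300a read 7.81 on the WT SPF array and 7.54 on the WT GF array, against 7.86 and 7.99 on the KO-labelled arrays; the sources used here do not say whether its probe lies in the deleted part. These arrays are therefore called KO-labelled, and serve only for values set beside those of the WT pair.

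Many genes differed between the WT arrays, and more of them were higher on the GF array than lower. At least 2-fold higher on the GF array were 2635 of 15113 genes (17.4%), and at least 2-fold lower were 1423 (9.42%). Large differences lay mostly on 1 side, with 293 genes at least 16-fold higher against 31 at least 16-fold lower by their measured signals, and 86 against 6 among genes above background on both arrays. Of the higher genes, 1033 (39.2%) were not above background on the SPF array, and of the lower genes, 509 (35.8%) were not above background on the GF array. Among the genes above background on both arrays 1602 (12.2%) were higher and 914 (6.94%) lower. Of these, 286 higher and 242 lower genes had another probe above background on both arrays. All such probes differed in the gene's own direction for 74.5% of the higher and 72.3% of the lower genes, so many counts rest on the probe chosen. With genes above background on 1 array only taken at their bound, 2301 (15.2%) were higher and 1171 (7.75%) lower; counts of a list or family use the measured signals, and the count at the bounds is added where it differs. The difference over all measured genes had a median of 0.13, and its 5th and 95th percentiles were -1.44 and 2.60. The share of genes past 2-fold went from 50.2% in the dimmest quartile of the genes to 13.4% in the brightest. Of 6879 bright genes, those with a mean level of at least 0, 632 (9.19%) were higher and 421 (6.12%) lower. With normexp background correction, which shrinks differences of dim signals, 960 genes were higher and 433 lower, and 42 of the 192 genes past 2-fold that the naming rule chose then stayed under 2-fold, among them Itgax, Bcl11a, Rfx5, Tap1, Chordc1, Ctla4, Pax5, Slfn1, Trib3, Chac1, Tlr5, Myd88 and Card9. Within each slide, the KO-labelled array differed from the WT array by at least 2-fold, in either direction, for 12.2% of genes on the SPF slide and 16.4% on the GF slide, against 26.9% between the WT arrays.

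**Figure D1:**
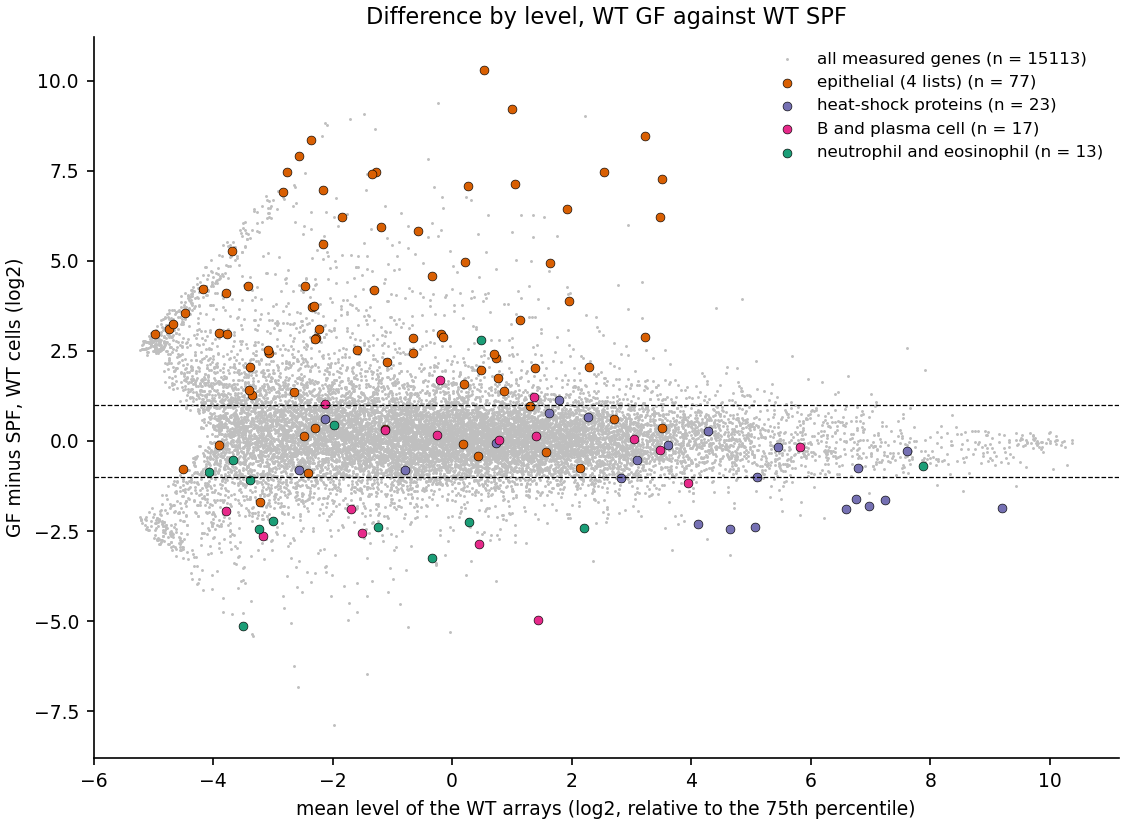
GF minus SPF difference (log2, vertical axis) of 15113 measured autosomal genes against their mean level on the 2 WT arrays (log2 relative to the 75th percentile, horizontal axis), with members of 4 marker groups coloured and 2-fold marked by dashed lines. Of the 77 epithelial genes 63 lie above the upper line, across the range of levels, 9 of 23 heat-shock genes lie below the lower line, and the spread of all genes is widest at low levels.

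The largest differences were in transcripts of the gut epithelium, which were present on the GF array at levels far above those of the SPF array. Krt20, a keratin of mature colonocytes, read -3.60 on the SPF array and 5.61 on the GF array, a 591-fold difference. Lypd8, a protein that colonocytes secrete to keep flagellated bacteria off the epithelium, read -2.29 on SPF and 6.74 on GF, 523-fold higher. Guca2a (guanylin) read -1.01 and 7.47, 357-fold higher. Each of these lay below the 75th percentile on the SPF array and far above it on the GF array. The 10 bright genes with the largest positive differences also held the carbonic anhydrase Car1 (-1.20 and 6.27, 178-fold), the fatty acid binding protein Fabp2 (-0.14 and 7.15, 156-fold), the keratin Krt19 (141-fold), the cytochrome Cyp2c55 (135-fold), the trypsin inhibitor Spink1 (109-fold), the mucosal scavenger protein Dmbt1 (103-fold) and the mucus protein Fcgbp (87.0-fold). The 10 dimmer genes with the largest positive differences were Atp1b1, Adgrg7, the carboxylesterases Ces2b and Ces2c, Ugt2b34, Apol10a, Tspan1, the goblet cell peptide Tff3, Eps8l3 and Fcna, with folds from 133 for Atp1b1 to 51.1 for Fcna; Fcna, a macrophage lectin, is not an epithelial gene. Among genes above background on the GF array only, Clca1, a secreted goblet cell protein, was at least 952-fold higher, Saa2 at least 405-fold, Fam83e at least 211-fold, Clca4a at least 155-fold and Phgr1 at least 153-fold.

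**Figure D2:**
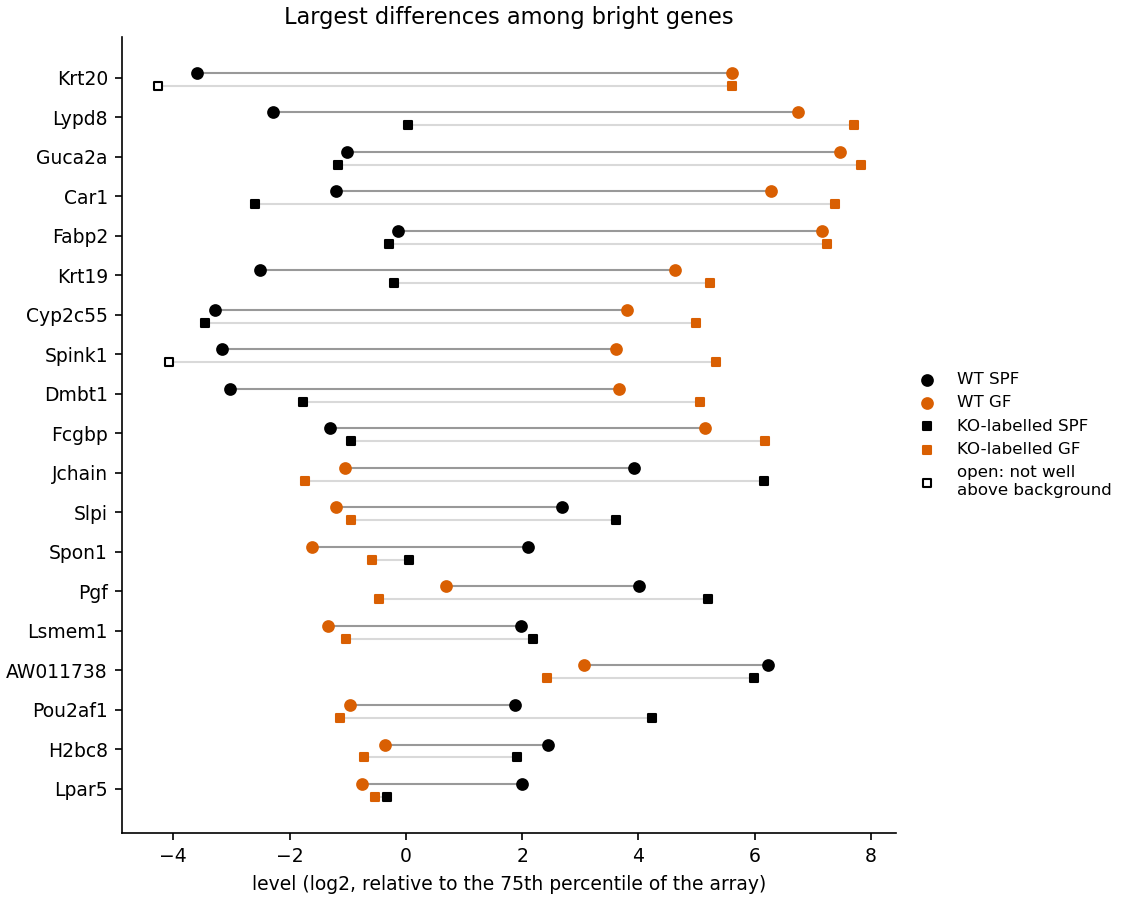
Level on each of the 4 arrays (log2 relative to the 75th percentile) of the 10 bright genes with the highest and 9 of the 10 with the lowest GF minus SPF difference in WT cells. Circles are the WT arrays and squares the KO-labelled arrays, black is SPF and orange is GF; in the upper 10 genes the GF points lie to the right in both genotypes, and in the lower 9 they lie to the left, with a short distance in the KO-labelled pair for Spon1 and Lpar5.

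By role, epithelial genes were mostly higher, from mature cell products to the transcription factors that specify them. Of the absorptive cell markers 18 of 21 measured members were at least 2-fold higher and 0 lower, with a median difference of 6.91, or 4.84 with one-sided genes at their bound; over all genes the share higher was 17.4%. With normexp correction the medians of the absorptive, goblet, transcription factor and junction, and enteroendocrine lists were 3.28, 1.15, 1.32 and 0.45. The chloride exchanger Slc26a3 was at least 64.9-fold higher, the water channel Aqp8 at least 102-fold and the cadherin Cdh17 at least 28.6-fold. Of the goblet cell markers 13 of 16 were higher and 0 lower (median 1.77 with one-sided genes at their bound), from the lectin Zg16 (0.38 and 6.59, 74.3-fold) to the gel-forming mucin Muc2 (-0.50 and 1.47, 3.92-fold). Of the epithelial transcription factors and junction genes 24 of 26 were higher (23 at the bounds) and 0 lower (median 2.68 with one-sided genes at their bound), and 14 of the 26 were not above background on the SPF array. Hnf4a, a nuclear receptor that maintains enterocyte identity, was at least 36.0-fold higher, Cdx1 at least 44.7-fold, the desmosome protein Dsp at least 46.4-fold and E-cadherin, Cdh1, at least 7.67-fold. Epcam, the epithelial adhesion molecule, read -0.84 and 4.11 (30.9-fold). The hormone-producing enteroendocrine cells showed a mixed pattern, with 8 of 14 markers higher and 1 lower; chromogranin B (Chgb) was at least 8.96-fold higher and secretin (Sct) 7.21-fold, while cholecystokinin (Cck) was at least 3.14-fold lower and peptide YY (Pyy) read -1.97 and -2.85. Over these 4 lists 77 of 86 genes were measured, 50 above background on the SPF array and 74 on the GF array. The summed linear signal of the absorptive list was 17.2 on WT SPF, 567 on WT GF, 19.3 on KO-labelled SPF and 832 on KO-labelled GF, in units of each array's 75th percentile, and that of the goblet list was 8.97, 208, 8.66 and 384 in the same order. The part of epithelial transcripts in the other differences was not tested.

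The detoxification and protease families of the epithelium, picked after their values were seen, were higher as well. Measured members at least 2-fold higher were 5 of 5 carboxylesterase 2 genes (median difference 6.06), 11 of 12 kallikrein 1 family genes (3.54; 10 at the bounds), 7 of 11 Cyp2c genes (4.33), 5 of 8 UDP-glucuronosyltransferases (1.71) and 3 of 3 gasdermin C genes (4.07), with none lower. Over all genes 17.4% were higher and 9.42% lower. Members of these families are close in sequence, so their probes may share signal and the counts of members are uncertain.

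Antimicrobial proteins differed in both directions, with 11 of 25 measured members higher and 4 lower, against 17.4% and 9.42% of all genes. The epithelial lectins Reg3b and Reg3g, which bind bacterial surfaces, were not above background on the SPF array and at least 11.9-fold and at least 9.92-fold higher on the GF array, and Saa1 read 1.79 and 4.67 (7.36-fold). Lower on the GF array were Slpi, a leukocyte protease inhibitor (2.68 and -1.21, 14.8-fold), Saa3, the serum amyloid of macrophages (at least 16.2-fold), and the granulocyte calcium-binding proteins S100a9 (9.60-fold) and S100a8 (at least 2.12-fold).

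Markers of dendritic cell types were looked at next. All 13 conventional dendritic cell markers were above background on both WT arrays. So were all 20 endothelial and all 24 fibroblast and smooth muscle markers, so presence above background does not identify the sorted cells. Of the 13, 0 were at least 2-fold higher and 2 lower, against 17.4% and 9.42% of all genes, with a median of -0.12. The lower ones were the integrin Itgax (CD11c; 4.26 and 3.13, 2.19-fold) and Bcl11a (-0.23 and -1.34, 2.16-fold, another probe of it 0.10). The transcription factor Zbtb46 read -1.58 and -1.62, and the growth factor receptor Flt3 read 0.20 and 0.07 (another probe -1.25). Of the type 1 markers 1 was higher and 3 lower of 12, with Clec9a at -0.48 and -0.59, Irf8 at 3.06 and 2.93, and the chemokine receptor Xcr1 at -2.12 on SPF and not above background on GF. Of the type 2 markers 6 of 12 were higher (5 at the bounds) and 0 lower, among them the inhibitory lectin Clec4a4 (-1.48 and 0.17, 3.14-fold), Klf4 (2.70-fold) and Irf4 (2.32-fold), but also Epcam, whose value lies with the epithelial genes; Sirpa, Clec10a and Mgl2 differed by -0.18, -0.29 and -0.35. The type 2 counts depend on the probe taken for Itgam and Notch2. Itgam differed by -0.56, with 2 other probes from -2.66 to -2.37, and Notch2 by 1.07, with another probe at -1.54. In the plasmacytoid list 3 of 12 were higher and 3 lower, and the highest, Atp1b1 and Klk1, are also expressed by epithelium, whereas Siglech read 4.08 and 4.16 (another probe of it differed by 2.80). In the KO-labelled pair 0 of 13 conventional markers were higher and 8 lower (median -1.11), against 21.4% and 15.7% of all genes there. Of 11 type 2 markers measured in that pair 2 were higher and 2 lower (median -0.39). Clec4a4 differed by -0.65 and Irf4 by -0.30 there. In a bulk sample, fewer cells of a type and less RNA per cell cannot be told apart.

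All 20 macrophage and monocyte markers were also above background on both arrays, although the cells are labelled dendritic cells. Of these, 7 were higher on the GF array and 1 lower, against 17.4% and 9.42% of all genes, and the others differed by less than 2-fold (median -0.02). Those higher include genes known from long-lived resident macrophages, though no list of such genes was set apart from the others. The complement genes C1qa, C1qb and C1qc differed by -0.27, -0.14 and -0.02, the growth factor receptor Csf1r by -0.26 (2 other probes from -0.74 to 0.64), the lysozyme Lyz2 by -0.04 and Apoe by -0.02. Lyve1, the hyaluronan receptor of perivascular macrophages and of lymphatic endothelium, read -2.45 and 3.30 (53.6-fold higher). The lectin Fcna read -3.23 and 2.44 (51.1-fold), and the folate receptor Folr2 read -0.22 and 4.05 (19.2-fold). The haemoglobin scavenger receptor Cd163 (-2.40 and 1.07, 11.1-fold), the phosphatidylserine receptor Timd4 (-1.01 and 1.55, 5.88-fold), the mannose receptor Mrc1 (2.99 and 4.56, 2.96-fold) and Mertk, a receptor for the uptake of dying cells (-0.48 and 0.58, 2.08-fold), followed. Ccr2, through which blood monocytes enter tissue, read 2.94 and 0.90 (4.10-fold lower). Genes outside the list with a like pattern, picked after their values were seen, were Cd209f (-1.90 and 3.91, 56.1-fold), Cd5l (23.5-fold), Cbr2 (21.2-fold), F13a1 (13.0-fold), Pla2g2d (11.6-fold), Stab1 (5.31-fold) and Pf4 (5.11-fold). The KO-labelled pair differed the same way, by 5.85 for Lyve1, 4.54 for Fcna, 3.85 for Folr2 and -2.53 for Ccr2, with the smallest difference for Timd4, 0.31.

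**Figure D3:**
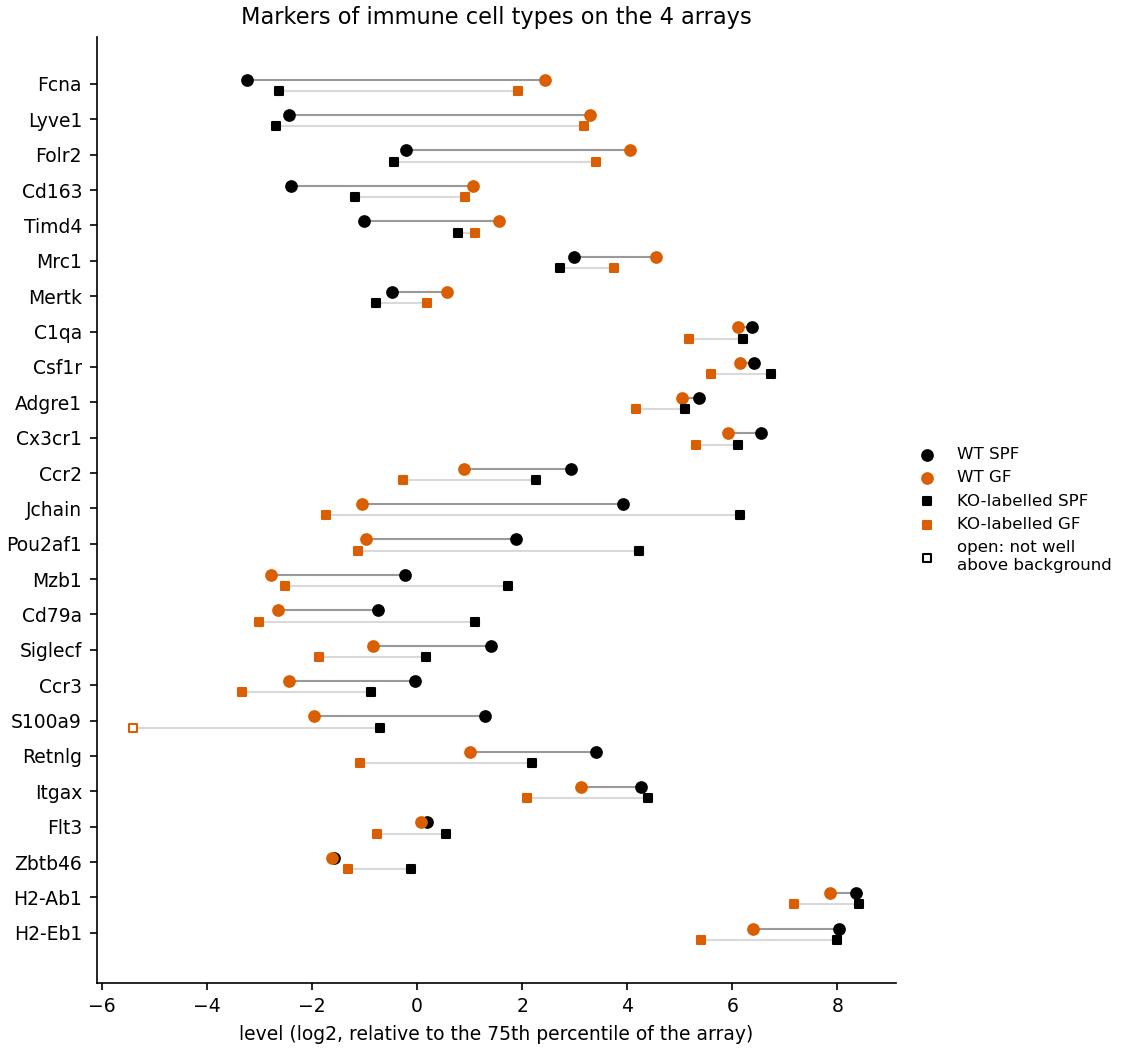
Level on each of the 4 arrays (log2 relative to the 75th percentile) of macrophage, plasma cell, granulocyte, dendritic cell and MHC class II genes chosen after their values were seen. Circles are WT and squares KO-labelled arrays, black is SPF, orange is GF, and open points were not well above background; orange lies to the right for Fcna to Mertk and to the left for Ccr2 to Retnlg, while C1qa, Csf1r, Flt3, Zbtb46 and H2-Ab1 lie close together in WT cells.

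Several transcripts of antibody-secreting cells were lower on the GF array, while the median of the B and plasma cell list was -0.16. That median is the value of Pigr, of which another probe differed by 4.10. Among the 15 members above background on both arrays the median was 0.025. Jchain, the joining chain of secreted IgA, read 3.92 on SPF and -1.05 on GF, 31.4-fold lower and the lowest of the bright genes. The B cell coactivator Pou2af1 read 1.88 and -0.97 (7.22-fold lower), Mzb1, a chaperone of antibody assembly, read -0.23 and -2.79 (5.88-fold), the antigen receptor chain Cd79a read -0.75 and -2.65 (3.73-fold), and Derl3, of the secretory pathway, was at least 4.54-fold lower. Xbp1, the transcription factor of secretory cells, read 4.53 and 3.37 (2.24-fold). Of 17 measured B and plasma cell markers 7 were lower, against 9.42% of all genes, and 3 were higher, against 17.4%, namely Tnfrsf17 (BCMA; -1.05 and 0.65, 3.25-fold), Irf4 and Pax5 (2.05-fold). The plasma cell regulator Prdm1 differed by 0.07, and the surface marker Sdc1 read 0.77 and 0.80; Ms4a1, a marker of mature B cells, was not above background on either array. On the KO-labelled SPF array Jchain read 6.15, above the WT SPF array, and on the KO-labelled GF array -1.73.

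Most granulocyte markers were lower on the GF array, and mast cell markers were mixed. Of 13 neutrophil and eosinophil markers 8 were lower and 1 higher, against 9.42% and 17.4% of all genes, with a median of -2.21, or -0.66 with normexp correction. The eosinophil genes Siglecf (1.41 and -0.85, 4.77-fold lower), Ccr3 (-0.04 and -2.44, 5.28-fold) and Prg2, the major basic protein (at least 8.53-fold), went together with the neutrophil genes S100a9 (1.30 and -1.97, 9.60-fold), Retnlg (3.41 and 1.01, 5.30-fold) and Cxcr2 (at least 4.39-fold). The exception was Mmp9, a protease that macrophages also make, at -0.93 and 1.88 (7.01-fold higher). The histamine-forming enzyme Hdc read 1.42 and -1.98 (10.6-fold lower), and the mast cell protease Mcpt4 was at least 3.09-fold lower. Only 5 of 11 autosomal mast cell markers were measured, and the others of these were the tryptase Tpsb2 (0.47 and -1.65, 4.36-fold lower, another probe 0.56), the transcription factor Gata2 (-2.50 and -1.05, 2.74-fold higher) and the receptor Kit (0.24 and 1.11). Among lymphocyte lists, T cell markers were 2 higher and 4 lower of 15 (3 lower at the bounds), with Cd4, which gut macrophages also carry, at 3.24 and 5.12 (3.68-fold higher), Ctla4 at -1.51 and -3.36 (3.61-fold lower) and Cd3e at -1.57 and -0.63. In the innate lymphoid list 4 of 15 were higher and 3 lower, among them the cytokine Il13 (at least 5.82-fold lower) and the IL-33 receptor Il1rl1 (1.63 and -0.18, 3.51-fold lower).

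Among stromal and blood transcripts, endothelial markers were higher for 10 of 20 and lower for 0, against 17.4% and 9.42% of all genes, with the junction protein Cldn5 at -2.73 and 0.70 (10.8-fold) and VE-cadherin, Cdh5, at -1.38 and -0.04 (2.53-fold); Lyve1 is in this list as well. Fibroblast and smooth muscle markers were 2 higher and 3 lower of 24, with the smooth muscle myosin Myh11 at 1.17 and -1.23 (-2.40). Of 6 measured erythroid markers 5 were higher, among them haemoglobin Hba-a1 at -0.45 and 2.35 (6.97-fold). The probes of the haemoglobin gene copies may share signal. In the KO-labelled pair 4 of 20 endothelial markers were higher and 1 lower, against 21.4% and 15.7% of all genes there. Cldn5 differed by 0.355 in that pair.

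The heat-shock proteins were lower on the GF array at high levels of signal. These chaperones refold damaged proteins, and the transcription factor HSF1 induces them by binding repeats of the letters GAA in alternate orientation. All 23 autosomal members were above background on both arrays; 9 were at least 2-fold lower and 1 higher, with a median of -0.81, against 9.42% and 17.4% of all genes. The mitochondrial chaperonin Hspd1 read 5.87 and 3.42 (5.46-fold lower), the co-chaperone Bag3 read 6.26 and 3.87 (5.26-fold) and the small heat-shock protein Hspb1 read 5.25 and 2.96 (4.90-fold). Every one of these was lower on the GF array, as were the inducible Hspa1a (7.54 and 5.65, 3.70-fold; its near-identical copy Hspa1b may share signal), Dnajb1 (10.13 and 8.26, 3.65-fold), the constitutive Hspa8 (3.50-fold, with 2 other probes from -1.13 to -0.24), Hsph1 (8.07 and 6.43, 3.12-fold), Dnaja1 (3.06-fold) and Dnajb4 (2.05-fold). The higher one was Chordc1, an HSP90 partner (1.22 and 2.35, 2.19-fold). The summed signal of the list was 2691 on WT SPF, 995 on WT GF, 2579 on KO-labelled SPF and 398 on KO-labelled GF. Of the members with the HSF1 letters in the 250 bases before the start site, the 3 with the lowest differences were picked. Their 250 bases, from RefSeq, are shown. They lie at chr5:135887669-135887918 on the plus strand (Hspb1), chr17:34972157-34972406 on the minus strand (Hspa1a) and chr5:149636337-149636586 on the minus strand (Hsph1) of GRCm38.p6, with capitals marking GAANNTTC or TTCNNGAA, which are 2 repeats in either order.
Hspb1: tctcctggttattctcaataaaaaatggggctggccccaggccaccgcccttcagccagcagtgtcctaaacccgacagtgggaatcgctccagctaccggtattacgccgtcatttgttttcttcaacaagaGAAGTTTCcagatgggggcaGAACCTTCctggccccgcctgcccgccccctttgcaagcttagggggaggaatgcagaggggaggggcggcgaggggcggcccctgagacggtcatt
Hspa1a: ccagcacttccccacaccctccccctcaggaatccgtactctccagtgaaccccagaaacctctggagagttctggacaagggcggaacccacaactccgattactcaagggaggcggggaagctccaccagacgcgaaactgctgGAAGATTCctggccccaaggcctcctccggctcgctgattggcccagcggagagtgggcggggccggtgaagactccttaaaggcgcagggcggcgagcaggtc
Hsph1: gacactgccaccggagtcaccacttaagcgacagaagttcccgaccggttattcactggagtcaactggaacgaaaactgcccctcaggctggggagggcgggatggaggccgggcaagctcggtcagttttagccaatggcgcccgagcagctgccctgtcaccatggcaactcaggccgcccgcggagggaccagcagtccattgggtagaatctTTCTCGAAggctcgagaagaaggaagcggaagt
In the window from 250 bases before to 50 after the start, 8 of 17 members with an entry held such a pair on either strand, against 15.1% of the promoters of 27025 genes, and 3 held 3 repeats (GAANNTTCNNGAA or TTCNNGAANNTTC), against 0.529%; every 3-repeat match contains 2-repeat matches. The 3 were Chordc1, Hspe1 and Hsph1, whose differences were 1.13, -0.76 (2 other probes of Hspe1 from -0.55 to 0.25) and -1.64. The 8 members with a pair had a median difference of -1.63 and the other members with an entry -0.81. For 3 repeats the order was the reverse, with medians of -0.76 with them and -0.93 without.

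Immediate early genes, which are switched on within minutes by stimulation and also by tissue dissociation, were more often higher than lower. Of 28 measured 11 were higher and 2 lower (median 0.57), against 17.4% and 9.42% of all genes. The matricellular Ccn1 read -0.25 and 3.44 (12.9-fold higher), Egr1 read 6.33 and 8.90 (5.95-fold) and Fosb read 6.93 and 8.90 (3.93-fold). Nr4a2, Ier3, Klf2, Klf4 and Fos were 3.60-, 3.50-, 3.11-, 2.70- and 2.46-fold higher, with another probe of Nr4a2 at 0.25. Lower were Jun (6.12 and 4.99, 2.19-fold) and Nr4a3 (1.09 and -0.32, 2.67-fold), so partners of the AP-1 dimer, Fos and Jun, differed in opposite directions. Of the unfolded protein and integrated stress response genes 3 of 27 were higher and 5 lower, with Trib3 at -0.66 and -3.01 (5.08-fold lower), Chac1 3.55-fold lower and the secreted protein Manf at 4.14 and 5.53 (2.62-fold higher).

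Most antigen presentation genes differed by less than 2-fold, and a few were lower on the GF array. In the MHC class II list 0 of 16 were higher and 3 lower (median -0.27), against 17.4% and 9.42% of all genes. H2-Eb1, a class II beta chain, read 8.03 and 6.40 (3.11-fold lower), H2-DMb1, which helps to load peptide, read 6.69 and 4.99 (3.25-fold) and the promoter factor Rfx5 read -0.52 and -1.55 (2.05-fold, another probe -0.97), while H2-Ab1 read 8.35 and 7.85. For class I, 1 of 19 was higher, the loading factor Tapbp (3.19 and 4.27, 2.12-fold), and 1 lower, the peptide pump Tap1 (-0.57 and -1.99, 2.68-fold). Among maturation and migration genes 5 of 29 were higher, a share near that of all genes, and 1 lower. At the extremes of this list, Marcksl1 read 1.60 and 4.23 (6.19-fold higher), Ccl17, a chemokine for T cells, 1.14 and 2.70 (2.96-fold), and the maturation marker Cd83 4.02 and 5.56 (2.90-fold), whereas the costimulatory receptor Cd40 read 0.97 and -0.56 (2.88-fold lower).

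Interferon-related transcripts were in part lower on the GF array. Interferon beta, Ifnb1, read 0.48 on SPF and was not above background on GF, at least 22.6-fold lower, and the receptor chain Ifnar1 read 3.29 and 2.12 (2.26-fold lower, 2 other probes from -0.66 to -0.26). Their list of interferons and receptors was evenly split, with 3 of 14 higher and 3 lower (2 lower at the bounds). Its median was -0.05, and Ifna12, one of the higher members, differed by 1.02. Of 45 interferon-stimulated genes 7 were lower and 2 higher (median -0.24), against 9.42% and 17.4% of all genes. Isg15, a ubiquitin-like protein, read 3.80 on SPF and 1.80 on GF, and another probe of it differed by -2.10, and Oasl1 read 1.45 and -0.90 (5.12-fold). The others lower were Slfn1 (3.51-fold), Ifit1 (at least 2.85-fold), the sensor Dhx58 (2.70-fold), Cmpk2 (2.50-fold; another probe -0.26) and Oas1a (2.13-fold; another probe 0.65), and Ifit3 (2.18-fold) and Eif2ak2 (2.08-fold) were higher. Of the interferon-induced GTPases 3 of 18 were lower and 0 higher, led by Gbp8 (1.41 and -0.51, 3.79-fold). The 250 bases before the start of Isg15 (chr4:156200819-156201068, minus strand) and Ifit1 (chr19:34640639-34640888, plus strand) in GRCm38.p6, from RefSeq, are shown because both were lower on the GF array and carry the interferon-stimulated response element, with capitals marking GAAANNGAAA or TTTCNNTTTC.
Isg15: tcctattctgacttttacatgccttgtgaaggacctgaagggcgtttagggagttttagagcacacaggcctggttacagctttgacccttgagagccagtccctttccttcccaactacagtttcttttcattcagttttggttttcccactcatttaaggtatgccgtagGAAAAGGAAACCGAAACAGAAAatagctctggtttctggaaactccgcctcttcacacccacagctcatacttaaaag
Ifit1: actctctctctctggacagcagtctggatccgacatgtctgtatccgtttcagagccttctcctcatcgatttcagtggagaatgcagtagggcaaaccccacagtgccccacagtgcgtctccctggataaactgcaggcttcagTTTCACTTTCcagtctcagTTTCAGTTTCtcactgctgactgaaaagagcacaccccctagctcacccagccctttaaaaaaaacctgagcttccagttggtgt
In the 300-base window 17 of 36 interferon-stimulated genes with an entry held these letters on either strand, against 3.49% of all promoters. Their median difference was -0.21, and that of the members without it -0.38. The 17 included Ifit3 and Eif2ak2, which were higher on the GF array, as well as Isg15, Ifit1 and Oas1a, which were lower.

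Sensors, cytokines and chemokines showed differences in both directions, and in both sensor lists the share higher was near the 17.4% of all genes, of which 9.42% were lower. Toll-like receptors and adaptors were 4 higher and 3 lower of 22, with the flagellin receptor Tlr5 at -3.80 and -1.10 (6.47-fold higher) and the adaptor Myd88 at 1.32 and 0.11 (2.31-fold lower). Of the other microbial sensors 7 of 38 were higher and 6 lower (5 at the bounds). The bile acid receptor Nr1h4 was at least 24.4-fold higher and Naip1 read -1.72 and 2.05 (13.6-fold higher), both known in epithelium, while the lectin Clec4e (-0.11 and -2.67, 5.87-fold), the receptor Gpr35 (2.02 and -0.43, 5.47-fold) and the adaptor Card9 (2.67-fold) were lower. NF-kappaB subunits and feedback inhibitors were 0 higher and 2 lower of 24, the subunit Nfkb1 (3.03 and 1.22, 3.49-fold) and the deubiquitinase Cyld (2.48-fold). Of 42 cytokines and chemokines 9 were higher and 10 lower. The chemokines Ccl4 and Ccl5, which attract T cells and monocytes, read 7.29 and 5.15 (4.41-fold lower) and 3.56 and 1.27 (4.89-fold lower). The growth factor Csf1 read 0.73 and -2.80 (11.5-fold lower), the IL-1 receptor antagonist Il1rn 4.20 and 2.12 (4.22-fold) and Cxcl9 3.85 and 1.94 (3.78-fold). Higher on the GF array were Il22ra2, the soluble decoy receptor of IL-22 made by gut dendritic cells (0.61 and 4.95, 20.3-fold), the eosinophil attractant Ccl24 (0.50 on SPF and 11.3-fold higher on GF), the epithelial cytokine Tslp (-2.56 and 0.68, 9.44-fold), Ccl25 (1.75 and 3.42, 3.19-fold) and Ccl28 (at least 5.72-fold). The monocyte attractants Ccl2 (2.24-fold) and Ccl7 (2.26-fold) and the cytokine Tnf (2.05-fold) were higher, and the anti-inflammatory Il10 read 4.01 and 3.08.

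Metabolic genes differed most for lipid handling and little for energy production and protein synthesis. Of 31 lipid handling genes 14 were higher (13 at the bounds) and 1 lower (median 0.56), against 17.4% and 9.42% of all genes. The fatty acid receptor Cd36 read 1.12 and 4.77 (12.6-fold higher), Pdk4 -2.65 and 0.40 (8.28-fold) and the desaturase Scd1 -2.58 and 0.32 (7.47-fold). The retinal dehydrogenase Aldh1a1 read -0.74 and 3.97 (26.1-fold higher), whereas in the list of retinoid and regulatory T cell-promoting genes 6 of 36 were higher, a share near that of all genes, and 5 lower (4 at the bounds), with the TGF-beta activator Thbs1 at 5.62 and 2.90 (6.60-fold lower) and Tgfb3 3.48-fold lower. Of 38 oxidative phosphorylation subunits 1 was higher and 0 lower (median 0.28), of 54 cytosolic ribosomal proteins 1 and 0 (median -0.02), and of 39 cell cycle genes 1 (0 at the bounds) and 1 (median 0.17). In the glycolysis and hypoxia list 3 of 30 were higher and 4 lower, with Vegfa (4.77 and 2.69, 4.23-fold) and the lactate exporter Slc16a3 (1.89 and -0.17, 4.17-fold) lower. The 3 higher were Adm (-1.77 and 0.90, 6.37-fold), P4ha1 (3.23-fold, another probe -0.91) and Bnip3 (2.91-fold, another probe 0.305).

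**Figure D4:**
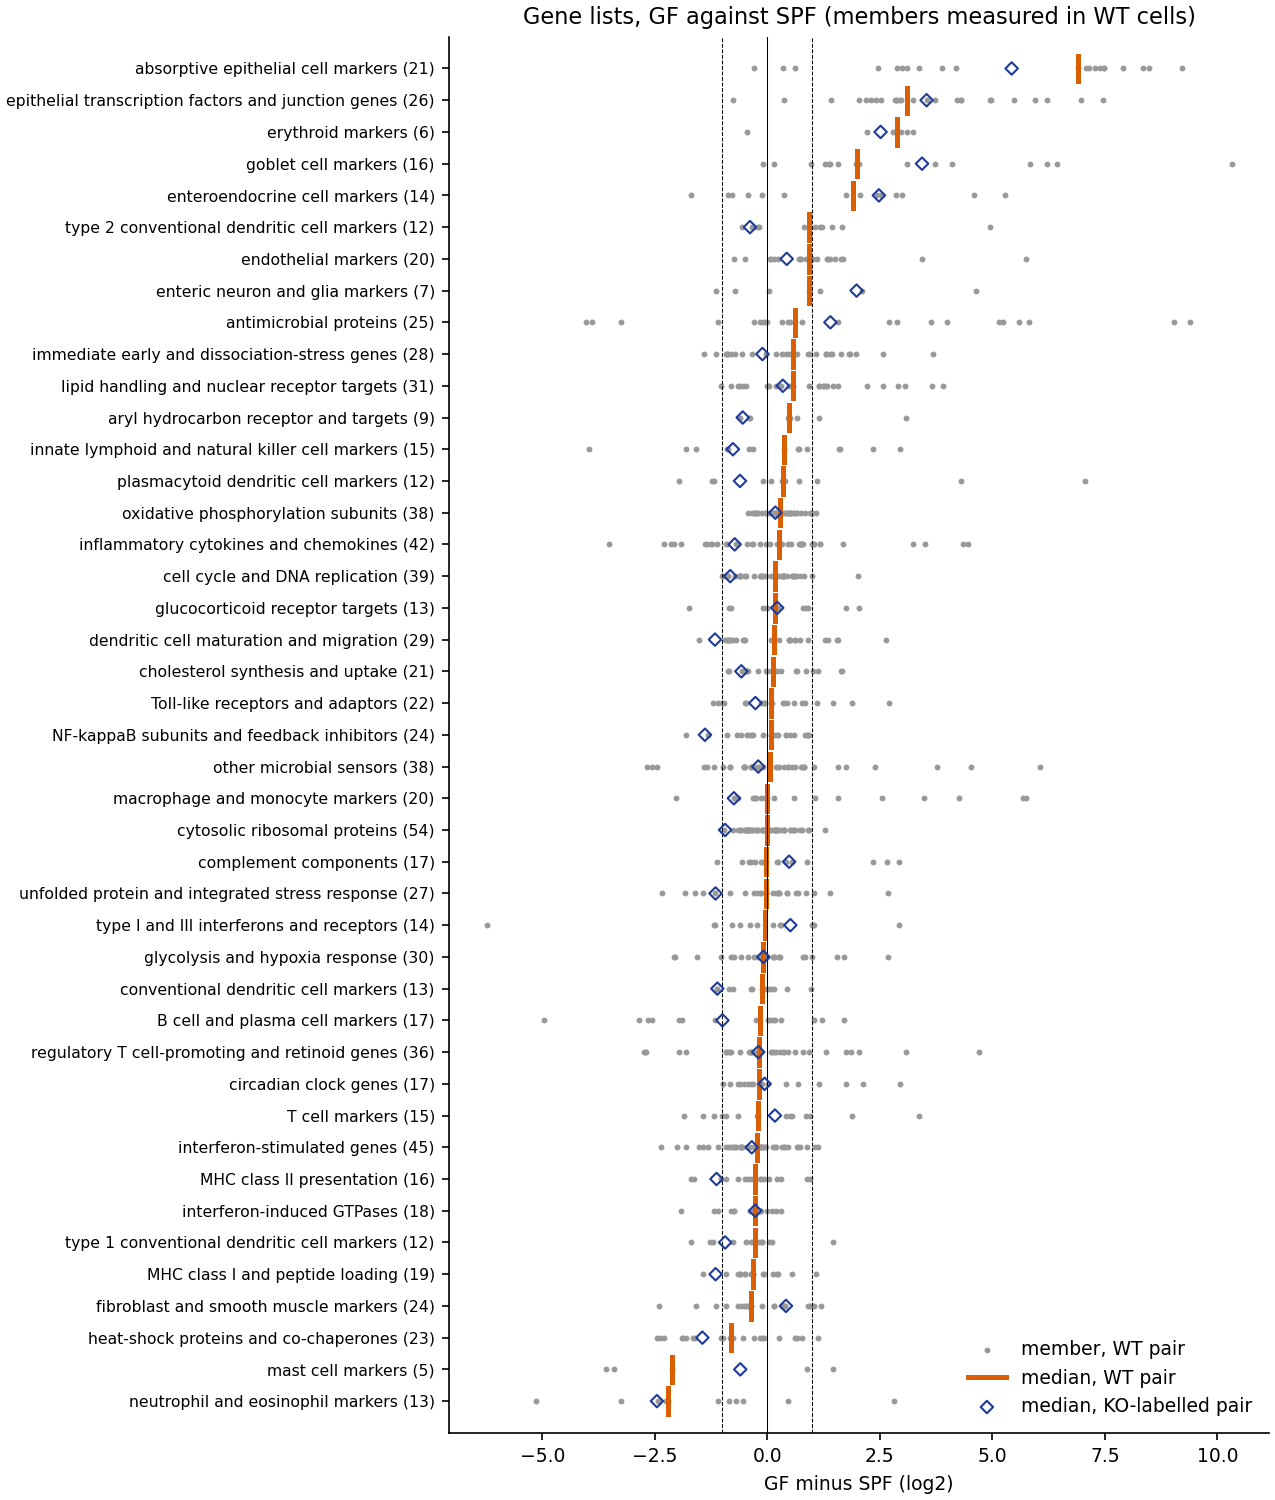
GF minus SPF difference (log2, horizontal axis) of the measured members of each of 43 gene lists (grey points), with the number of members in brackets, the median of the WT pair (orange bar) and of the KO-labelled pair (open diamond). Absorptive cell markers have the highest WT median, 6.91, and neutrophil and eosinophil markers the lowest, -2.21; most functional lists have WT medians near 0.

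Bright genes with the lowest differences, besides Jchain, Slpi and Pou2af1, came from several families. The matrix protein Spon1 read 2.10 and -1.62 (13.1-fold lower), the growth factor Pgf 4.02 and 0.69 (a difference of -3.33), Lsmem1 1.98 and -1.34 (-3.32), AW011738 6.22 and 3.06 (8.98-fold), the histone H2bc8 2.44 and -0.36 (6.96-fold) and the lysophosphatidic acid receptor Lpar5 -0.75 on the GF array (6.72-fold lower). Among dimmer genes the lowest were Fam83a (39.7-fold lower), the lipoxygenase Alox15 (36.0-fold), Tuba8 (23.1-fold), the histones H2ac6, H4c17 and H2bc18 (19.8-, 18.4- and 15.4-fold), Bsn (14.9-fold), Gcnt2 (14.3-fold), Csf1 and 4930505A04Rik (11.1-fold). The histones led to a count over replication-dependent histone genes, made after those values were seen. Of 41 measured 0 were higher and 16 lower (14 at the bounds), against 17.4% and 9.42% of all genes. Of the 41, 40 were below 0 (median -0.82, against 0.13 over all genes). Near-identical histone gene copies may share signal. The largest bounds downward were those of Rimklb (at least 63.6-fold), Fam169b (at least 57.3-fold), Olfr695 (at least 29.1-fold), Vmn1r10 (at least 27.3-fold) and Terf2 (at least 26.8-fold). For Terf2, 2 other probes differed by -0.13 and -0.07, so that bound rests on 1 probe of the gene.

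The KO-labelled pair lay across the same slides and scans and shares no array with the WT pair. Measurements in both pairs were available for 14355 genes, of which 1608 (11.2%) were past 2-fold on the higher side in both and 695 (4.84%) lower in both. This was 68.2% of the WT higher genes measured there and 57.2% of the KO-labelled higher genes measured in WT, and 59.0% and 31.5% for lower genes. Opposite 2-fold differences were found for 47 genes higher in WT (0.327%) and 74 lower in WT (0.515%). Across these genes, which share arrays and are not independent, Pearson's r between the differences of both pairs was 0.76 and Spearman's rho 0.64. The genes with the largest differences in both pairs, ranked by the smaller one, included Guca2a, Lypd8, Car1, Fabp2, Cyp2c55, Dmbt1, Ces2b, Fcgbp, Btnl5-ps (another probe -0.19) and Cdhr5 on the higher side, and Jchain, Slpi, Gcnt2, Pgf, Lsmem1, AW011738, Syne1 (another probe 0.47), Pou2af1 and Csf1 on the lower side. Guca2a differed by 8.48 in WT and 8.99 in the KO-labelled pair, and Slpi by -3.89 and -4.55. Some lists had a KO-labelled median further below 0 than in WT. The heat-shock median was -1.44 there against -0.81 in WT, and that of NF-kappaB genes -1.39 against 0.08. In the KO-labelled pair 18 of 24 NF-kappaB genes were lower, against 15.7% of all genes. The median of maturation genes was -1.16 there against 0.15 in WT, and that of ribosomal proteins -0.94 against -0.02. The brightest quartile of all genes had a median of -0.30 in the KO-labelled pair and 0.02 in WT, and the part of this shift in the list medians was not tested. Nor was the difference between the pairs.

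**Figure D5:**
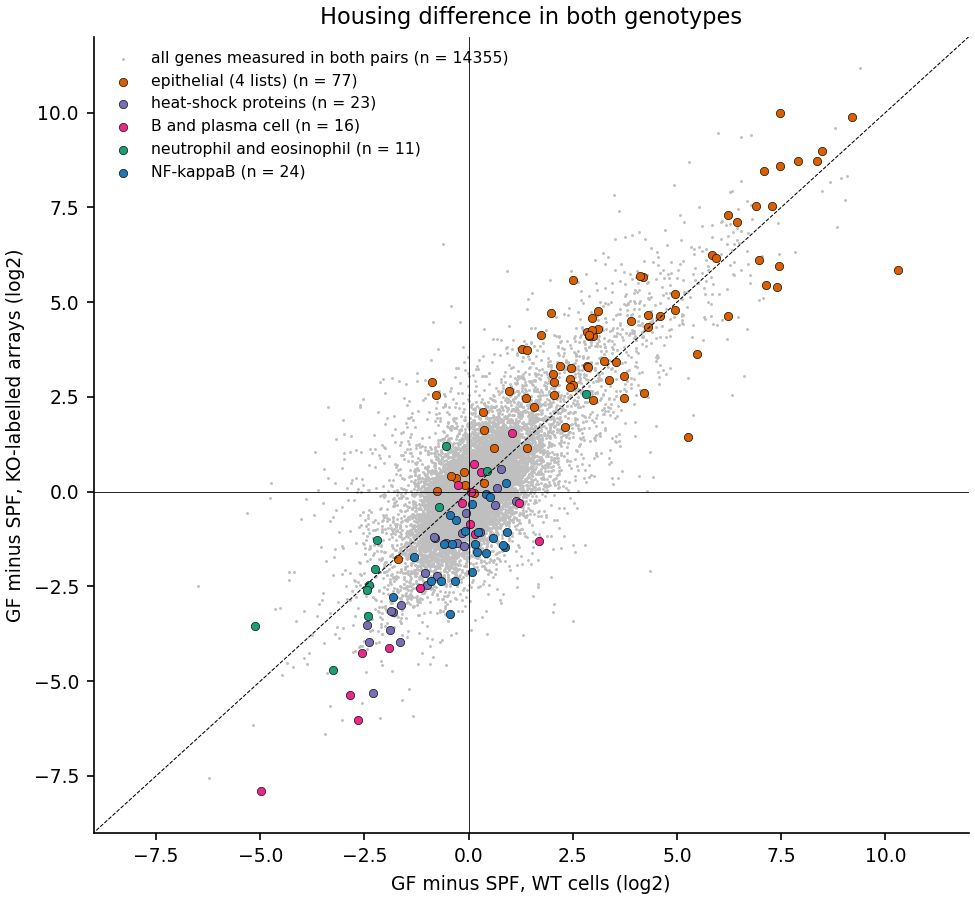
GF minus SPF difference (log2) of 14355 genes in the WT pair (horizontal axis) and in the KO-labelled pair (vertical axis), with 5 gene groups coloured and equal values on the dashed line. Most epithelial genes lie along the upper part of the line, most heat-shock and plasma cell genes that were lower in WT lie below the line, and NF-kappaB genes lie near 0 in WT and mostly below 0 in the KO-labelled pair.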

How the data were processed

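Total RNA was amplified and labelled with Cy3, per the labels' protocols, and hybridised to 1-colour Agilent arrays read with Feature Extraction 10.10.1.1 (protocol GE1_1010_Sep10, design on mm9), per the file headers. The deposited scanner files hold a processed signal intensity, background-subtracted by that software and not scaled between arrays. The deposited table of the series holds the same intensity times a constant per array (8.30 for WT SPF, 7.08 for WT GF) on a linear scale without centring; the sources used here do not say how the constants were set. Column medians of that table were 237.2 for WT SPF, 216.3 for KO-labelled SPF, 235.7 for WT GF and 331.4 for KO-labelled GF.

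From these intensities, log2 of the signal minus each array's 75th percentile over 59305 non-control spots was computed (numpy 2.4.6, pandas 2.3.3). Flagged spots (144 to 215 per array) were left out and spots of a probe averaged; 63.9% of spots were well above background on WT SPF and 63.1% on WT GF, and none was saturated. RefSeq accessions (GRCm38.p6) named 27191 probes and 28406 stayed unnamed. A gene's brightest probe stood for it; where another probe above background on both arrays lay on the other side of 0 or of 2-fold, its value is given. Of 20637 genes, 833 not on autosomes were left out.

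Genes past 2-fold were counted without a test, because each group has 1 array; that number limits the precision. The counting was tested on simulated data. Named genes were the 10 highest and lowest bright (mean level at least 0) and dim genes, the 5 largest bounds each way, the extremes of each list, and genes large in both pairs; all others, such as further list members, were picked after their values were seen. A few genes that this rule names are not reported here. The members and 43 lists (977 of 1010 symbols matched) were chosen with earlier results of these data known. Alternatives were normexp correction (offset 50), quantile, cyclic loess (limma 3.58.1 in R 4.3.3) and median scaling, the deposited table, other background filters, the median over probes and flagged spots kept. Normexp used the median spot and background signals.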

Additional observations from a re-analysis of the deposited data

Results flagged for a closer look

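In these genes the WT pair and the KO-labelled pair differed by at least 2-fold in opposite directions; the difference between the pairs was not tested, and with 1 array per group each value rests on 2 arrays. Of all genes measured in both pairs, 0.327% were higher in WT and lower in the KO-labelled pair and 0.515% the reverse. Cd83, a maturation marker, differed by 1.54 in WT (4.02 on SPF, 5.56 on GF) and by -1.06 in the KO-labelled pair (5.38 and 4.32). Tnfrsf17, a receptor of plasma cells, differed by 1.70 and -1.30. Mcemp1 differed by 1.66 and -1.80, with the WT SPF array at 2.39 and the KO-labelled SPF array at 3.98. Fut1, a fucosyltransferase, differed by 1.54 and -2.76, Klri2 by 1.49 and -1.90, and Ppp1r16b by 2.03 and -1.52. Inpp5j, an inositol phosphatase, was the one among them that was lower in WT, at -1.76 against 1.65.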

How the results depend on the processing

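Each array is alone in its group, so no array could be left out, and no slide or scan term could be fitted. No paired analysis was possible because the result comes from no test. The counts depended on how dim signals were treated and not on the scaling. With normexp correction 960 genes were past 2-fold on the higher side and 433 on the lower, and 920 had the same direction past 2-fold in both pairs. With genes above background on both arrays only, the counts were 1602, 914 and 1397, against 2635, 1423 and 2303 in the text, and among genes with a mean level of at least 0 there were 632 higher and 421 lower. Quantile, cyclic loess and median scaling and the deposited table gave 2499 to 2569 higher and 1475 to 1515 lower genes, and their median over all genes was 0.10 in each against 0.13. Of 286 named genes 192 were past 2-fold, and 0 of these changed sign under any alternative that gave a value; with normexp 42 of them stayed under 2-fold, among them Fut1, Klri2 and Ppp1r16b of the genes with opposite directions. With the median over probes 9 of the 192 fell under 2-fold. Of the lists with a median at least 0.2 from 0, 4 changed sign. The innate lymphoid median of 0.37 became -0.006 with normexp and -0.37 with genes above background on both arrays. The mast cell median of -2.12 became 0.20 without a background filter. The T cell median of -0.21 became 0.26 without that filter and 0.41 with the median over probes, and the aryl hydrocarbon receptor median of 0.47 became -0.30 with the median over probes. The cause of these changes was not tested.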

Other observations

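Further families, picked after their values were seen, showed differences that the text has not described; over all genes 17.4% were higher and 9.42% lower in WT, and 21.4% and 15.7% in the KO-labelled pair. Of the measured Klr genes, which encode lectin-like receptors of natural killer cells, 3 of 19 were higher on the GF array and 9 lower (2 and 8 at the bounds; median -0.65), and 16 of 20 were lower in the KO-labelled pair. Keratin genes were 15 higher and 3 lower of 29 (14 and 2 at the bounds), and claudins, the proteins that seal tight junctions, 8 higher and 1 lower of 13 (0 lower at the bounds). Among butyrophilin-like genes, known for shaping gut intraepithelial T cells, 3 of 6 were higher and 0 lower. Among complement genes 3 of 17 were higher, a share near that of all genes, and 1 lower, Itgax, with a median of -0.02; higher were among others C2 (-1.57 and 1.35, 7.57-fold) and the decay-accelerating factor Cd55 (6.27-fold), while C1qa, C1qb and C1qc differed by less than 2-fold. Clock genes were 4 higher and 0 lower of 17, with a median of -0.19 and 7 of the 17 above 0. Values past 2-fold were those of Arntl (-2.62 and -0.50, a difference of 2.12) and Per1 (0.88 and 2.62, 3.35-fold) among others, and the labels give no time of day of sampling. Metallothionein Mt2, a target of glucocorticoids and metals, read 3.57 and 5.61 (4.12-fold higher), and Ddit4, another glucocorticoid target, read 5.59 and 3.86 (3.32-fold lower).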
